A study of Mus musculus with 9 samples.

Results

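The transcripts of Pax3, Pax7 and Foxo1, 3 of the 18193 genes measured, were followed across forelimb bud cells of mouse embryos that carry or lack the fusion protein PAX3-FKHR. Their probe sets were chosen by gene symbol alone. A probe set is a group of short probes summarized as 1 value. Each one whose annotation gives exactly 1 symbol, that of Pax3, Pax7 or Foxo1, was taken. This gave 9 of the 45037 probe sets tested, with 3 for Pax3, 2 for Pax7 and 4 for Foxo1. The main probe set of a gene is its brightest one, by the mean of the 9 arrays.

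The study set a Pax3 gain of function background against a control, and then GFP+ against GFP- cells, to find genes that mark muscle progenitors and genes that lie downstream of Pax3. Cells were sorted by GFP from forelimb buds at E10.5, and RNA of 3 samples in each of 3 groups was measured on Affymetrix Mouse430_2 arrays. PAX3-FKHR GFP+ cells came from Pax3PAX3-FKHR/GFP embryos, in which 1 Pax3 allele encodes GFP and the other encodes the fusion, switched on by PGK-Cre. PGK drives Cre widely, and the fusion is made under the control of the Pax3 locus, so it is not limited to limb muscle progenitors. Control GFP+ cells came from Pax3GFP/+ embryos, which keep 1 unaltered Pax3 allele. GFP- cells fell in the negative gate of the same kind of sort. Their labels give no genotype. The study's text sets them against GFP+ cells within Pax3GFP/+ embryos, and its description of the arrays also lists a Pax3+/+ group without tying it to these cells. The limb buds of many embryos were pooled for each sample, and the targeted Pax3 lines were kept on a C57BL6/DBA2 background. The methods call the arrays of a group biological replicates, but do not say how the embryos were divided among them.

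Pax3 and Pax7 are paralogous transcription factors with a paired domain and a homeodomain. Pax3 marks the dermomyotome of the somite and the muscle progenitors that migrate from it into the limb, and it also acts in the dorsal neural tube and neural crest. Pax7 marks muscle progenitors later in development and the satellite cells of adult muscle. Foxo1, formerly named FKHR, encodes a forkhead factor that is kept out of the nucleus by insulin and Akt signalling. In human alveolar rhabdomyosarcoma a translocation joins the DNA-binding part of PAX3 to the activation domain of FKHR.

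The PCR primers that the study used for the mouse Pax3 and Pax7 transcripts are shown because they are the sequences by which it read these same transcripts apart from the arrays. They run 5′ to 3′, and their place relative to the array probes was not examined. PCR values are not analysed here.
Pax3_F: taccagcccacgtctattcc
Pax3_R: tagcctgcggtgctataggt
Pax7_F: gccttcaaccaccttctgc
Pax7_R: actgtgctgcctccatcttg

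All values are the authors' RMA values, which are log2 values, so that a step of 1 is a doubling of signal. They are compared between groups for 1 probe set at a time, and not between probe sets. The arrays were on a common scale, with lower quartiles of 3.65 to 3.74, medians of 5.08 to 5.13 and upper quartiles of 7.04 to 7.19. To be called, a probe set needed a p under 0.05 after Benjamini-Hochberg adjustment over all 45037 probe sets and a log2 fold change of 0.5 or more in either direction, which is a fold change of 1.414. The limma model held all 9 arrays, and each log2 fold change is given with the standard error (SE) of that fit. Precision is limited by having 3 arrays in each group, and an exact permutation test of 3 against 3 cannot give a p below 0.1.

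Over all probe sets, 0.395% were called higher and 0.142% lower in PAX3-FKHR GFP+ than in control GFP+ cells. Control GFP+ cells had 1.84% called higher and 4.01% called lower than GFP- cells, and for PAX3-FKHR GFP+ against GFP- cells these shares were 2.8% and 4%. The arrays of both groups lay fully apart, in either direction, for 12%, 25% and 27.5% of probe sets in these 3 comparisons. Any of the 3 comparisons shares a group of arrays with each of the others, so they are not independent. Against that background, 5 of the 9 member probe sets were called in PAX3-FKHR GFP+ against control GFP+ cells, namely all 3 of Pax3, which were lower, and both of Pax7, which were higher. None of the 4 Foxo1 probe sets was called in that comparison. Of the 9, 6 were called in control GFP+ against GFP- cells, all higher, and 1 of them was of Foxo1. Between PAX3-FKHR GFP+ and GFP- cells 8 were called, all higher, and 3 of them were of Foxo1. The calls of Pax3 in PAX3-FKHR GFP+ against control GFP+ cells are a check of the genotype. Those in control GFP+ against GFP- cells are a check of the sort. What lies behind its calls in PAX3-FKHR GFP+ against GFP- cells was not tested.

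**Figure D1:**
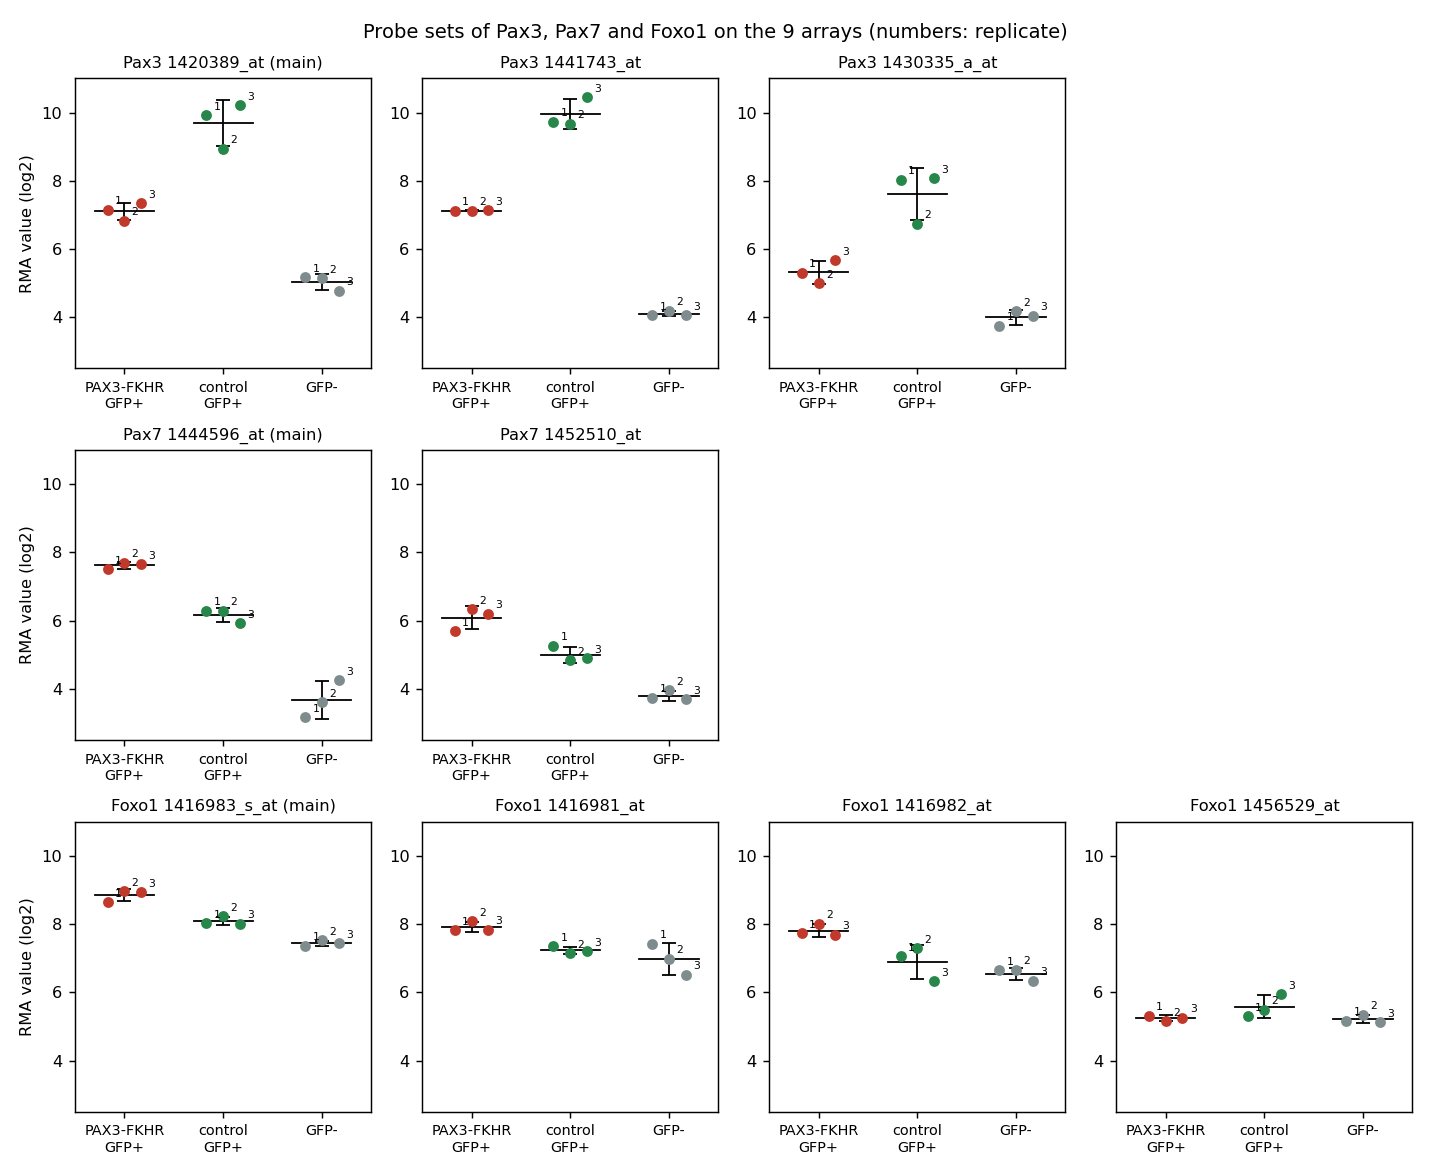
RMA values (log2) of the 9 probe sets of Pax3, Pax7 and Foxo1 on the 9 arrays, by group, with points for the arrays, their replicate number beside each, a line for the group mean and bars for the SD. Pax3 is highest in control GFP+ cells, Pax7 is highest in PAX3-FKHR GFP+ cells, and 3 of the 4 Foxo1 probe sets have all PAX3-FKHR GFP+ arrays above the control GFP+ arrays.

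Pax3 is the targeted gene of the design. It was 6.04-fold lower in PAX3-FKHR GFP+ than in control GFP+ cells on its main probe set, and 4.22-fold higher than in GFP- cells. Cells were sorted by GFP made from the Pax3 locus, so a higher Pax3 level in control GFP+ than in GFP- cells follows from the sort. The Pax3 values of control GFP+ against GFP- cells are therefore a check of the sort, and not a finding. Those of PAX3-FKHR GFP+ against GFP- cells are a description only, since what the probe sets read there was not tested. PAX3-FKHR GFP+ cells have no unaltered Pax3 allele. The study treats Pax3 as a control, stating that these embryos do not transcribe the mouse gene. The lower Pax3 level against control GFP+ cells is therefore a check of the genotype, and not a finding either. On this probe set, 1420389_at, the PAX3-FKHR GFP+ arrays 1, 2 and 3 gave 7.15, 6.83 and 7.33. The control GFP+ arrays gave 9.92, 8.94 and 10.22, and the GFP- arrays gave 5.17, 5.14 and 4.77. No array of one group overlapped those of another, and the spread was widest among the control GFP+ arrays, where replicate 2 was the low one. The means were 7.10 ± 0.25 in PAX3-FKHR GFP+ cells, 9.70 ± 0.67 in control GFP+ cells and 5.03 ± 0.22 in GFP- cells (SD, n = 3 each). The limma log2 fold change was -2.59 (SE 0.29, adjusted p = 0.00363) in PAX3-FKHR GFP+ against control GFP+ cells. It was 4.67 (SE 0.29, adjusted p = 2.69e-05), or 25.5-fold, in control GFP+ against GFP- cells. It was 2.08 (SE 0.29, adjusted p = 0.00211) in PAX3-FKHR GFP+ against GFP- cells. Pairs of the same replicate number differed by -2.78, -2.11 and -2.89 between PAX3-FKHR GFP+ and control GFP+ cells. Without overlap of the groups, any pairing would run the same way.

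The second Pax3 probe set, 1441743_at, gave the tightest groups of the gene. The PAX3-FKHR GFP+ arrays lay at 7.12, 7.12 and 7.14, the control GFP+ arrays at 9.73, 9.68 and 10.45 and the GFP- arrays at 4.06, 4.19 and 4.05. The 3 groups were again fully apart, and the SD of the PAX3-FKHR GFP+ arrays was 0.01. In log2 terms the difference was -2.83 (limma, adjusted p = 1.84e-04) in PAX3-FKHR GFP+ against control GFP+ cells, a level 7.11-fold lower. Between control GFP+ and GFP- cells it was 5.86 (limma, adjusted p = 1.1e-06), or 57.9-fold. Between PAX3-FKHR GFP+ and GFP- cells it was 3.03 (limma, adjusted p = 1.43e-05), or 8.14-fold.

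The third Pax3 probe set was 1430335_a_at. By the array's naming, the letter a marks probes shared by several transcripts of 1 gene. The PAX3-FKHR GFP+ arrays gave 5.29, 4.99 and 5.66, the control GFP+ arrays 8.03, 6.74 and 8.07 and the GFP- arrays 3.74, 4.18 and 4.04. These groups did not overlap either, and control GFP+ replicate 2 was again low, by more than 1 log2 unit. Its log2 fold change was -2.30 (limma, adjusted p = 0.0129) in PAX3-FKHR GFP+ against control GFP+ cells, 3.62 (adjusted p = 2.19e-04) in control GFP+ against GFP- cells and 1.33 (adjusted p = 0.0358) in PAX3-FKHR GFP+ against GFP- cells. Its call against control GFP+ cells was lost without PAX3-FKHR GFP+ replicate 1 (adjusted p = 0.0620), PAX3-FKHR GFP+ replicate 2 (0.0749) or control GFP+ replicate 1 (0.0623). Its call in PAX3-FKHR GFP+ against GFP- cells was lost without any single one of the 6 arrays (limma, adjusted p of 0.0643 to 0.128).

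For Pax3 the order of the levels was control GFP+, PAX3-FKHR GFP+ and GFP- on all 3 probe sets, and each neighbouring pair was called. The upper pair differs in its Pax3 alleles. The lower pair differs in the GFP gate, and the labels give no genotype for its GFP- cells. Why PAX3-FKHR GFP+ cells lay above GFP- cells was not tested. Both altered alleles sit in the Pax3 locus, and the fusion carries PAX3 sequence. Whether these probe sets also read transcripts of the fusion or of the GFP allele was not tested. By genotype, PAX3-FKHR GFP+ cells have no unaltered Pax3 allele. The arrays read bulk RNA of sorted cells. Beyond the genotype, fewer cells that express a gene and less of its RNA per cell therefore cannot be told apart.

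**Figure D2:**
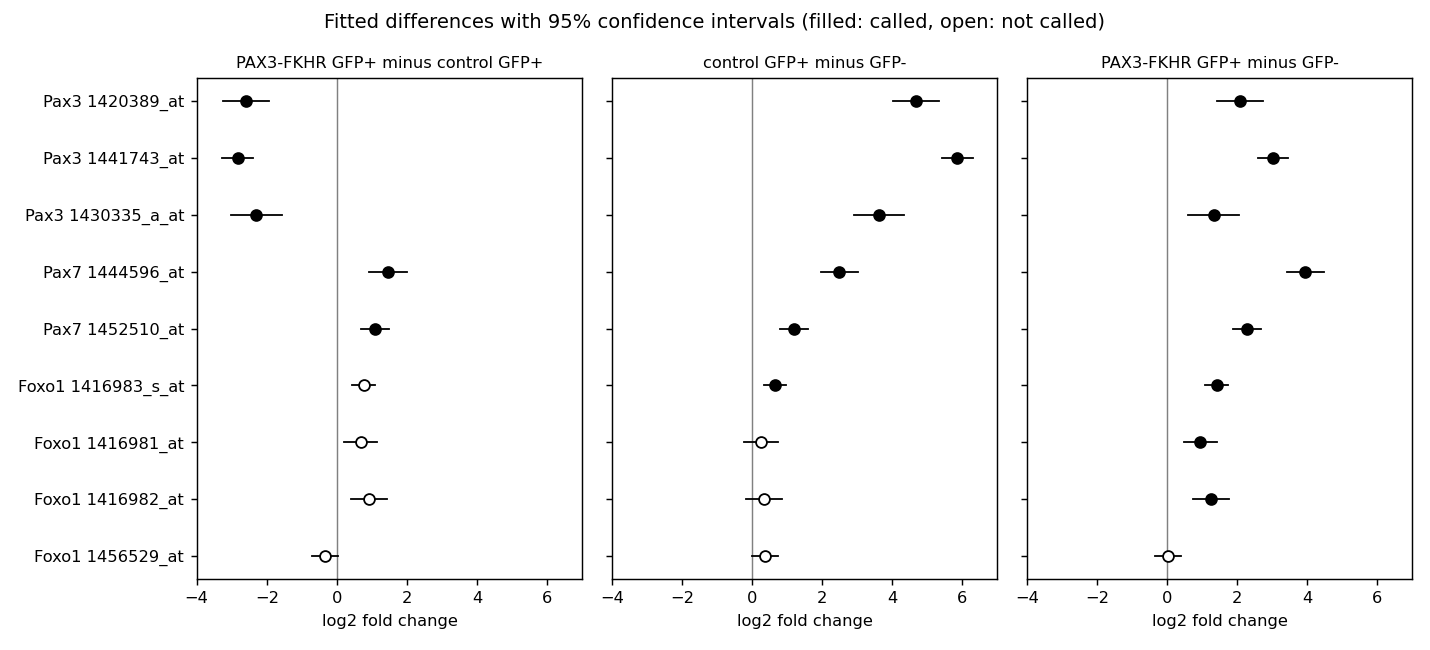
Log2 fold changes of the 9 probe sets in the 3 comparisons from the limma fit (x axis), with 95% confidence intervals as lines and filled points where the probe set was called. In PAX3-FKHR GFP+ minus control GFP+ the Pax3 probe sets lie left of 0 and the Pax7 probe sets right of it, and all Foxo1 points are open.

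Pax7, the paralogue of Pax3, ran the other way in PAX3-FKHR GFP+ cells, where its main probe set was 2.74-fold higher than in control GFP+ cells. It was also 5.61-fold higher in control GFP+ than in GFP- cells. On the main probe set, 1444596_at, the PAX3-FKHR GFP+ arrays gave 7.50, 7.70 and 7.65. The control GFP+ arrays gave 6.29, 6.29 and 5.92, and the GFP- arrays gave 3.16, 3.61 and 4.25. The 3 groups lay apart on every array, and the GFP- values were close to the lower quartile of the arrays. The means were 7.62 ± 0.10 in PAX3-FKHR GFP+ cells, 6.16 ± 0.21 in control GFP+ cells and 3.67 ± 0.55 in GFP- cells (SD, n = 3 each).

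The limma log2 fold change of this probe set was 1.45 (SE 0.24, 95% confidence interval 0.92 to 1.99, adjusted p = 0.0281) in PAX3-FKHR GFP+ against control GFP+ cells. It was 2.49 (SE 0.24, adjusted p = 3.27e-04) in control GFP+ against GFP- cells, and 3.94 (adjusted p = 9.31e-06), or 15.4-fold, in PAX3-FKHR GFP+ against GFP- cells. Within pairs of the same replicate number, PAX3-FKHR GFP+ exceeded control GFP+ by 1.22, 1.41 and 1.74. As these groups did not overlap, any pairing would run the same way. With the replicate number as a block, the limma adjusted p for PAX3-FKHR GFP+ against control GFP+ was 0.0531 over the 9 arrays and 0.00753 over the 6 arrays compared. The call was lost without any single one of those 6 arrays, PAX3-FKHR GFP+ replicates 1 to 3 and control GFP+ replicates 1 to 3 alike, with log2 fold changes of 1.33 to 1.52 and adjusted p of 0.0595 to 0.130.

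The other Pax7 probe set, 1452510_at, ran the same way. The PAX3-FKHR GFP+ arrays gave 5.70, 6.34 and 6.20, the control GFP+ arrays 5.26, 4.84 and 4.89 and the GFP- arrays 3.74, 3.97 and 3.69. The groups did not overlap, and the PAX3-FKHR GFP+ array nearest to the control GFP+ arrays was replicate 1. PAX3-FKHR GFP+ cells differed from control GFP+ cells by a log2 fold change of 1.08 (limma, adjusted p = 0.0316), or 2.12-fold. It was 1.20 (adjusted p = 0.00436) in control GFP+ against GFP- cells and 2.28 (adjusted p = 5.46e-05) in PAX3-FKHR GFP+ against GFP- cells. The pairs of replicates 1, 2 and 3 differed by 0.44, 1.50 and 1.31 between PAX3-FKHR GFP+ and control GFP+ cells. With the replicate number as a block the call in that comparison was lost over 9 arrays (limma, adjusted p = 0.0696) and over 6 arrays (0.0709). It was also lost without PAX3-FKHR GFP+ replicate 2 (0.141) or 3 (0.139) and without control GFP+ replicate 2 (0.099) or 3 (0.102).

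For Pax7 the order of the levels was PAX3-FKHR GFP+, control GFP+ and GFP- on both probe sets. Their log2 fold changes in PAX3-FKHR GFP+ against control GFP+ cells differed by 0.37 (exact permutation test, two-sided p = 0.2, adjusted over 18 such tests p = 0.36). Between control GFP+ and GFP- cells the main probe set changed by 1.29 more than the other (exact permutation test, p = 0.1, adjusted p = 0.2, with 0.1 the smallest p possible).

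Foxo1 had smaller differences than Pax3 or Pax7 by the main probe sets. It was 1.70-fold higher in PAX3-FKHR GFP+ than in control GFP+ cells and missed the threshold, and it was 1.57-fold higher in control GFP+ than in GFP- cells. On this probe set, 1416983_s_at, the PAX3-FKHR GFP+ arrays gave 8.64, 8.98 and 8.95. The control GFP+ arrays gave 8.03, 8.24 and 8.01, and the GFP- arrays gave 7.37, 7.52 and 7.44. All 3 groups lay apart, with less scatter than for Pax3. The means were 8.86 ± 0.18 in PAX3-FKHR GFP+ cells, 8.09 ± 0.13 in control GFP+ cells and 7.45 ± 0.08 in GFP- cells (SD, n = 3 each). By the array's naming, the letter s marks probes that more than 1 transcript can share, although the annotation gives only Foxo1 for it.

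The limma log2 fold change of this Foxo1 probe set was 0.76 (SE 0.14, 95% confidence interval 0.44 to 1.08) in PAX3-FKHR GFP+ against control GFP+ cells, with an adjusted p of 0.0551. It was called under 4 of the 19 other settings tried. The pairs of the same replicate number differed by 0.62, 0.74 and 0.93, in the same direction as any pairing of groups that do not overlap. Between control GFP+ and GFP- cells it was 0.65 (95% confidence interval 0.33 to 0.97, limma adjusted p = 0.0256). Between PAX3-FKHR GFP+ and GFP- cells it was 1.41 (95% confidence interval 1.09 to 1.73, limma adjusted p = 2.79e-04), or 2.66-fold. The call in control GFP+ against GFP- cells rested on most of the arrays. Of the 6 fits with 1 of those arrays left out, it held only in the 1 without control GFP+ replicate 3 (limma adjusted p of 0.0271 there, and up to 0.094 in the others).

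The other Foxo1 probe sets fell into a pair that ran like the main one and 1 that did not. On 1416981_at the PAX3-FKHR GFP+ arrays gave 7.83, 8.09 and 7.85, the control GFP+ arrays 7.35, 7.15 and 7.21 and the GFP- arrays 7.44, 6.99 and 6.52. All arrays of PAX3-FKHR GFP+ cells exceeded the rest, while the control GFP+ and GFP- arrays overlapped. Against control GFP+ cells, PAX3-FKHR GFP+ cells had a log2 fold change of 0.68 (95% confidence interval 0.21 to 1.16, limma adjusted p = 0.401). Against GFP- cells it was 0.94 for PAX3-FKHR GFP+ (limma adjusted p = 0.0249, called) and 0.26 for control GFP+ (95% confidence interval -0.22 to 0.73, adjusted p = 0.512). The call in PAX3-FKHR GFP+ against GFP- cells held in 1 of 6 fits with an array left out, the one without GFP- replicate 1, with adjusted p of up to 0.111 in the others.

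On 1416982_at the PAX3-FKHR GFP+ arrays gave 7.73, 8.02 and 7.69, the control GFP+ arrays 7.06, 7.30 and 6.34 and the GFP- arrays 6.65, 6.67 and 6.35. Here too PAX3-FKHR GFP+ cells lay above both other groups, which overlapped through control GFP+ replicate 3. The log2 fold change was 0.92 (95% confidence interval 0.40 to 1.44, limma adjusted p = 0.207) against control GFP+ cells. Against GFP- cells it was 1.26 for PAX3-FKHR GFP+ (limma adjusted p = 0.00897, called, and called without each single array too) and 0.34 for control GFP+ (95% confidence interval -0.17 to 0.86, adjusted p = 0.42).

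The fourth Foxo1 probe set, 1456529_at, gave 5.32, 5.16 and 5.26 on the PAX3-FKHR GFP+ arrays, 5.30, 5.50 and 5.95 on the control GFP+ arrays and 5.17, 5.35 and 5.13 on the GFP- arrays. All 3 groups overlapped, and the values were a little above the medians of the arrays. The log2 fold change was -0.33 (95% confidence interval -0.70 to 0.03, limma adjusted p = 0.741) in PAX3-FKHR GFP+ against control GFP+ cells, 0.37 (adjusted p = 0.231) in control GFP+ against GFP- cells and 0.03 (adjusted p = 0.943) in PAX3-FKHR GFP+ against GFP- cells. Between PAX3-FKHR GFP+ and control GFP+ cells the main probe set exceeded it by 1.10 in log2 fold change (exact permutation test, p = 0.1, adjusted p = 0.2). That is the smallest p that 3 arrays against 3 allow.

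For Foxo1 the order of the levels was PAX3-FKHR GFP+, control GFP+ and GFP- by the group means of the 3 probe sets other than 1456529_at. PAX3-FKHR GFP+ and control GFP+ did not differ past the threshold on any of the 4, and control GFP+ and GFP- differed past it on the main one only. The fusion allele carries FKHR sequence, and whether these probe sets also read its transcript was not tested.

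Of the other 7 Pax genes 6 were measured, with a probe set of 1 symbol. None was called in PAX3-FKHR GFP+ against control GFP+ cells, where 0.61% of all 18193 genes were called higher and 0.203% lower, so that 0 calls among 6 genes do not set them apart from the rest. Their median log2 fold change was -0.04 in that comparison, beside -0.03 over all genes. Pax1, known for its role in the sclerotome, was 1 of the 6 and the only one called in either comparison with GFP- cells. It gave 5.04, 5.08 and 5.31 on the PAX3-FKHR GFP+ arrays, 5.21, 5.36 and 4.79 on the control GFP+ arrays and 7.40, 7.12 and 6.48 on the GFP- arrays. The GFP- arrays were above all GFP+ arrays, with log2 fold changes of -1.88 (limma adjusted p = 0.00139) in control GFP+ against GFP- cells and -1.86 (9.62e-04) in PAX3-FKHR GFP+ against GFP- cells. With the mean of all Pax1 probe sets these were -1.18 and -1.10. Pax4, Pax5, Pax6, Pax8 and Pax9 had group means between 3.19 and 5.52, which reach below the lower quartiles of the arrays, and none was called in any of the 3 comparisons.

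**Figure D3:**
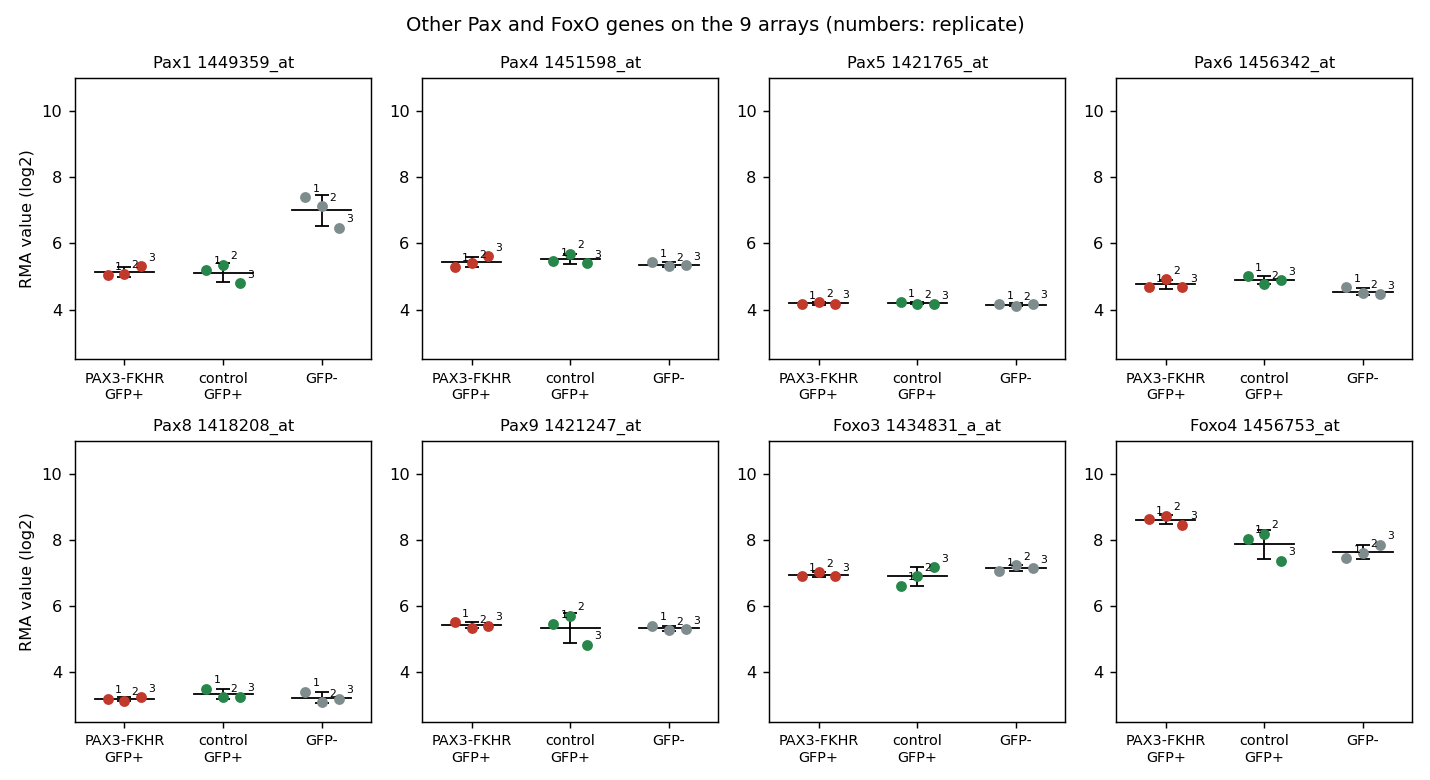
RMA values (log2) of the other Pax and FoxO genes measured, 1 probe set each, by group, with points for the 9 arrays, their replicate number beside each, a line for the mean and bars for the SD. Pax1 stands higher in GFP- cells, Foxo4 stands higher in PAX3-FKHR GFP+ cells, and no other gene shown was called in any comparison.

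Foxo3 and Foxo4, forkhead factors of the same family as Foxo1, were the 2 of its other 3 relatives that were measured. Foxo4 gave 8.64, 8.74 and 8.47 on the PAX3-FKHR GFP+ arrays, 8.05, 8.19 and 7.38 on the control GFP+ arrays and 7.45, 7.62 and 7.87 on the GFP- arrays. Those of PAX3-FKHR GFP+ cells were above all others, and control GFP+ and GFP- arrays overlapped. Its log2 fold change was 0.75 (limma adjusted p = 0.315) against control GFP+ cells and 0.97 (adjusted p = 0.0219, called) against GFP- cells. With the mean of all Foxo4 probe sets these were 0.37 and 0.50. The call against GFP- cells was lost without PAX3-FKHR GFP+ replicate 1 (adjusted p = 0.0655) or 2 (0.0984) and without GFP- replicate 1 (0.0874) or 2 (0.0724). Foxo3 differed by 0.05 between PAX3-FKHR GFP+ and control GFP+ cells (95% confidence interval -0.30 to 0.40) and was called nowhere.

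Genes that act upstream of FoxO proteins, from the insulin and IGF receptors through PI3 kinase to Akt, Sgk and the 14-3-3 proteins, were read from a list of 18, of which 16 were measured. None was called in PAX3-FKHR GFP+ against control GFP+ cells, with a median of 0.03, beside -0.03 over all genes. The shares of the 16 called higher and lower were 6.25% and 0% in control GFP+ against GFP- cells, beside 2.79% and 1.93% of all genes. They were 6.25% each between PAX3-FKHR GFP+ and GFP- cells, beside 3.9% and 2.79%, so at 1 call a direction the list cannot be set apart from the rest. Irs1, an adaptor of the insulin and IGF receptors, was the 1 gene called in control GFP+ against GFP- cells, higher by 0.93 (limma adjusted p = 0.0046). Against GFP- cells, PAX3-FKHR GFP+ cells had Irs1 higher by 1.25 (limma adjusted p = 5.9e-04), while Sgk3, a kinase related to Akt, fell by 0.81 (adjusted p = 0.0331). The call of Sgk3 was lost in 5 of the 6 fits with 1 array left out, all but the one without GFP- replicate 1, with adjusted p of up to 0.119.

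Genes placed with Pax3 and Pax7 in the network of limb muscle progenitors were followed in each comparison. Some of them are in the study's own lists from these arrays, so they are no independent evidence of a direction. Of 22 such genes 20 were measured. In control GFP+ against GFP- cells 13 were called higher and 1 lower, beside 2.79% and 1.93% of all genes. The median log2 fold change was 2.15, beside 0.08 over all genes. The 1 called lower was Spry1 (-1.13, limma adjusted p = 0.031), and its call was lost without GFP- replicate 1 (0.0945), 2 (0.0829) or 3 (0.0809). Myf5, a muscle determination factor, was higher by 5.74, Lbx1, a homeobox gene of migrating progenitors, by 5.02, Eya1, a transcriptional cofactor, by 4.75 and Met, the receptor that migrating progenitors need, by 4.50. Of the 20, 13 were called higher and none lower in PAX3-FKHR GFP+ against GFP- cells, beside 3.9% and 2.79% of all genes. The median there was 2.06, beside 0.05 over all genes.

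Between PAX3-FKHR GFP+ and control GFP+ cells 2 of these 20 were called, 1 higher and 1 lower, beside 0.61% and 0.203% of all genes. The median of the 20 was 0.14, beside -0.03 over all genes. Hdac5, a class II histone deacetylase, was higher by 0.98 (limma adjusted p = 0.0208). Foxc2, a forkhead factor of the somite, fell by 1.66 (adjusted p = 0.00923). The call of Hdac5 was lost without PAX3-FKHR GFP+ replicate 1 (adjusted p = 0.108) or 2 (0.125) and without control GFP+ replicate 1 (0.106) or 3 (0.0544), and that of Foxc2 was kept without each single array. With the replicate number as a block both calls held. Over the 6 arrays of this comparison the block also called 2 more genes higher, making 3 of the 20, beside 0.912% of all genes. These were Myf5, by 0.93 (limma adjusted p = 0.018 with this block, 0.538 with the block over 9 arrays and 0.471 without it), and Fgfr4, a receptor tyrosine kinase of muscle progenitors, by 1.69 (0.0496, 0.463 and 0.372). Fgfr4 was chosen after its values were seen. Next after the 2 called genes by adjusted p were Spry1, at 1.35 (limma adjusted p = 0.0622), and Meox2, at -0.81 (0.0941). Both were called with array weights (limma adjusted p = 0.0108 and 0.0312). Neither was called with the replicate block over 6 arrays (0.0555 and 0.0872) or over 9 (0.0902 and 0.14).

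Pax3 also marks the dorsal neural tube and neural crest, and genes of these tissues are given beside it. Of 16 such genes 15 were measured. Among them 1 was called lower and none higher in PAX3-FKHR GFP+ than in control GFP+ cells, beside 0.203% and 0.61% of all genes. Of the 15 fold changes 12 were below 0, with a median of -0.30, beside 10475 of 18193 and -0.03 over all genes. Zic1, a zinc finger factor of the dorsal neural tube, was the one called, and it fell by 2.07 (limma adjusted p = 0.00469). Sox2, a factor of neural progenitors, had a log2 fold change of -2.02 (limma adjusted p = 0.0721) and was not called. It was called once PAX3-FKHR GFP+ replicate 2 (adjusted p = 0.0285) or 3 (0.0143) was left out, and with the replicate block over 6 arrays (0.0395), but not with the block over 9 (0.067). Array weights (0.0378), the mean of all probe sets of each gene (0.0384) and a local pooled error test (-1.72, adjusted p = 7.93e-06) called it too. Under 13 of the 19 other settings tried, Sox2 stayed uncalled. Erbb3, a neuregulin receptor of the neural crest chosen after its values were seen, had a log2 fold change of 1.94 the other way (limma adjusted p = 0.444). The mean level of the 15 genes was 5.83 to 6.43 on the PAX3-FKHR GFP+ arrays, 6.18 to 6.73 on the control GFP+ arrays and 5.25 to 5.36 on the GFP- arrays. Against GFP- cells, 8 were called higher and 2 lower in control GFP+ cells, beside 2.79% and 1.93% of all genes. The median of the 15 was 1.24 there, beside 0.08 over all genes. Their part in the level of Pax3 was not tested.

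Other cell types were checked in the same way. Of 16 limb mesenchyme genes none was called between PAX3-FKHR GFP+ and control GFP+ cells, beside 0.61% of all genes higher and 0.203% lower. The replicate block over 6 arrays called Grem1, a BMP antagonist, higher by 0.95 (limma adjusted p = 0.0392, and 0.127 without the block). When control GFP+ cells were set against GFP- cells, 13 of the 16 were called lower and none higher, beside 1.93% and 2.79% of all genes. The mean level of these genes was 7.74 to 8.14 on the PAX3-FKHR GFP+ arrays, 7.73 to 7.99 on the control GFP+ arrays and 9.35 to 9.67 on the GFP- arrays, and the ranges of both GFP+ groups overlapped. Of 12 limb ectoderm genes 2 were called higher and none lower in PAX3-FKHR GFP+ than in control GFP+ cells, beside 0.61% and 0.203% of all genes. They were Tfap2c by 2.15 (limma adjusted p = 0.00483) and Fgf8 by 1.14 (adjusted p = 0.00712). With the mean of all its probe sets Tfap2c was higher by 1.15. Of the 12 fold changes 9 were above 0, beside 7718 of 18193 over all genes. The 3 below 0 were those of Krt8 (-0.36), Krt18 (-0.28) and Krt14 (-0.08). Tfap2c is also a gene of the neural crest. The mean ectoderm level was 5.48 to 5.93 on the PAX3-FKHR GFP+ arrays, 4.90 to 5.55 on the control GFP+ arrays and 5.85 to 7.03 on the GFP- arrays. Of 10 endothelial genes and of the 10 blood genes measured (11 listed) none was called between PAX3-FKHR GFP+ and control GFP+ cells. There 8 of the 10 endothelial fold changes were below 0, with a median of -0.28, beside 10475 of 18193 and -0.03 over all genes. In control GFP+ against GFP- cells 10 of 10 were above 0, beside 12008 of 18193 over all genes. The median of the 10 endothelial genes was 0.39 there, beside 0.08 over all genes, and none of the 10 was called. Their mean level was 5.36 to 5.93 on the PAX3-FKHR GFP+ arrays, 5.75, 6.69 and 5.42 on control GFP+ arrays 1, 2 and 3 and 4.84 to 5.98 on the GFP- arrays, so that control GFP+ replicate 2, the low control array for Pax3, was the highest of the 9. The mean blood level was 6.26 to 7.70 on the PAX3-FKHR GFP+ arrays, 6.01 to 7.73 on the control GFP+ arrays and 6.60 to 9.37 on the GFP- arrays. The part of these cell types in the levels of Pax3, Pax7 and Foxo1 was not tested.

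The genes whose array profiles were most like each main probe set were found among 18190 genes, each by its brightest probe set. Likeness was measured by the root mean square difference over the 9 arrays between log2 values centered on each gene's own mean, so that a small value is a close match. The 9 values share their 3 groups, and no test was made. For Pax3, whose own root mean square deviation was 1.94, the nearest were Zic1 (0.47), Sim2 (0.55), Crym (0.56), Sox2 (0.75) and Mybpc1 (0.76). Each of these had its highest values in control GFP+ cells. Zic1 gave 4.90, 4.74 and 4.18 on the PAX3-FKHR GFP+ arrays, 6.72, 6.27 and 7.04 on the control GFP+ arrays and 2.92, 3.14 and 2.51 on the GFP- arrays. Control GFP+ replicate 2, the low control array for Pax3, was the low one for Zic1, Sim2, Crym and Mybpc1 too. It was not the low one for Sox2, which gave 7.08, 7.14 and 7.14 on control GFP+ arrays 1, 2 and 3.

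Pax7 had closer matches relative to its own deviation of 1.65. The nearest gene was Pkp2 (0.18), which encodes the desmosomal protein plakophilin 2, followed by Parm1 (0.24), Col13a1 (0.27), Cdh15 (0.34) and Npr3 (0.37). Pkp2 gave 8.07, 8.30 and 8.20 on the PAX3-FKHR GFP+ arrays, 6.42, 6.42 and 6.21 on the control GFP+ arrays and 3.42, 3.83 and 4.75 on the GFP- arrays. It followed Pax7 down to the GFP- arrays, where replicate 1 was lowest and replicate 3 highest for both. Cdh15 encodes M-cadherin, the cadherin of muscle progenitors and satellite cells.

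Foxo1, with a deviation of 0.59, had Med12l (0.12), Nedd4l (0.13), Pmp22 (0.14), Fyn (0.15) and Gramd1b (0.15) nearest to it. These lie in the same descending order of groups, with PAX3-FKHR GFP+ first and GFP- last. Pmp22, a protein of peripheral myelin, gave 8.79, 8.81 and 8.78 on the PAX3-FKHR GFP+ arrays, 8.04, 8.21 and 7.93 on the control GFP+ arrays and 7.57, 7.50 and 7.67 on the GFP- arrays.

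**Figure D4:**
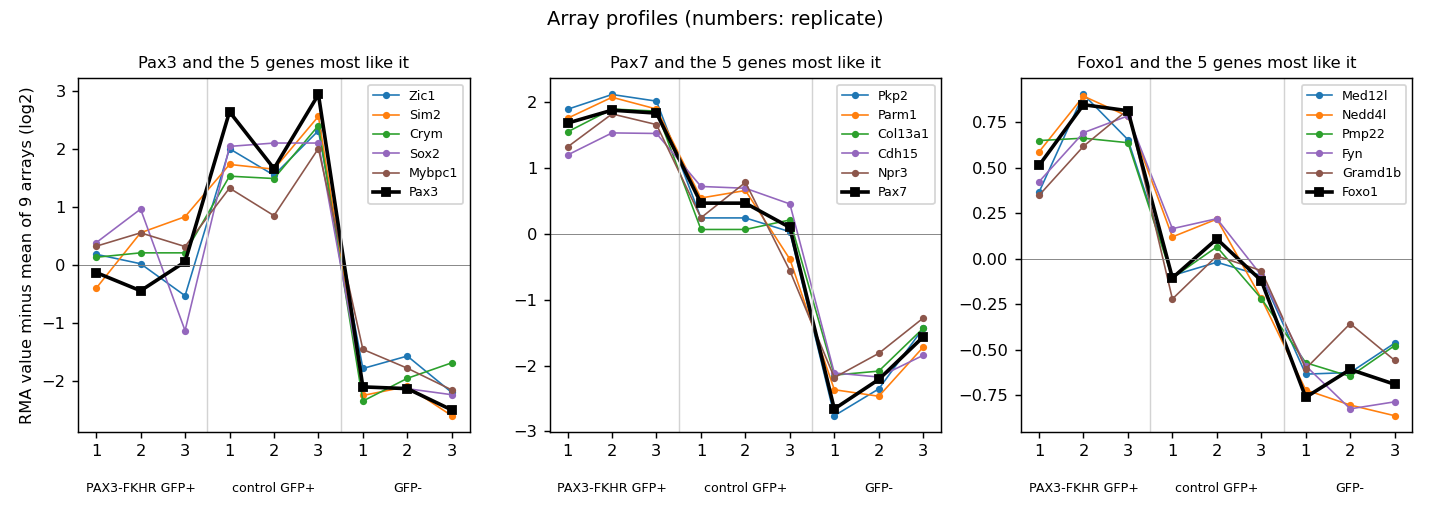
RMA values (log2) minus the mean of the 9 arrays for the main probe sets of Pax3, Pax7 and Foxo1 (black squares) and the 5 genes most like each (colored lines), with arrays on the x axis by group and replicate number. The vertical scales differ between panels. The Pax3 set peaks in control GFP+ cells, while the Pax7 and Foxo1 sets step down from PAX3-FKHR GFP+ over control GFP+ to GFP- cells.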

How the data were processed

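RNA of sorted forelimb bud cells had been amplified and hybridized to Mouse430_2 arrays. The authors made log2 values per probe set with RMA, which corrects background, equalizes array distributions and summarizes probes, and these log2 values were used as deposited. The version of RMA and a genome build are not given in the sources used here. Of 45101 probe sets 64 array controls were left out. Of the rest, 34945 have 1 gene symbol, 932 several and 9160 none, and 18193 genes are represented by their brightest probe set. Absent calls were not used here.

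limma 3.58.1 (R 4.3.3) was fitted to all 9 arrays, with a trend of the variance on intensity, for 3 two-sided contrasts. Alternatives were a rebuilt local pooled error test, which the study had used, and scaling, array weights, filters, thresholds, replicate blocks and single arrays left out. The scripts were tested on simulated data. Replicate numbers come from the titles. Once group means were removed, the correlation between PAX3-FKHR GFP+ and control GFP+ arrays that share number 1, 2 or 3 was 0.164, 0.472 and 0.287. No PAX3-FKHR GFP+ array matched a control GFP+ array of another number better, and the reverse was not examined. The numbers were therefore taken as pairs there, in the pair differences and the replicate blocks but not in the main fit. GFP- arrays did not pair.

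Named are all probe sets of the 3 genes, the 5 genes most like each, all other Pax and FoxO genes, and up to 4 members with the smallest adjusted p from each of the other lists. Members and lists were chosen with earlier results of these data known. PCR primers are the study's.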

Additional observations from a re-analysis of the deposited data

Results flagged for a closer look

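A further probe set is named Pax3 only in the study's own tables and has no single symbol in the annotation, so it was kept apart from the 9 members. It gave 4.15, 3.81 and 4.08 on the PAX3-FKHR GFP+ arrays, 5.28, 4.27 and 6.36 on the control GFP+ arrays and 3.99, 3.53 and 3.92 on the GFP- arrays. All control GFP+ arrays were above all others, but they spread over more than 2 log2 units. The log2 fold change was 1.49 (SE 0.40, limma adjusted p = 0.0565) in control GFP+ against GFP- cells, -1.29 (SE 0.40, adjusted p = 0.400) in PAX3-FKHR GFP+ against control GFP+ cells and 0.20 (adjusted p = 0.839) in PAX3-FKHR GFP+ against GFP- cells. It is listed here because its values in control GFP+ cells exceed those in GFP- cells outside the probe sets compared above. Without control GFP+ replicate 2 it was called in control GFP+ against GFP- cells (log2 fold change 2.01, adjusted p = 0.00461) and in PAX3-FKHR GFP+ against control GFP+ cells (-1.81, adjusted p = 0.0268).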

How the results depend on the processing

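The main Pax3 probe set was called in all 3 comparisons under each of 19 alternatives, and so was the main Pax7 probe set in both comparisons with GFP- cells. In PAX3-FKHR GFP+ against control GFP+ cells, Pax7 1444596_at (1.45) was not called with the replicate block over 9 arrays (1.45, limma adjusted p = 0.0531), nor without any single array (1.33 to 1.52). In that comparison Foxo1 1416983_s_at was called without the intensity trend (0.76, adjusted p = 0.0285), with array weights (0.78, adjusted p = 0.0124) and with filters at the median (0.76, adjusted p = 0.0333) or at a mean of 5 (0.76, adjusted p = 0.0369). In control GFP+ against GFP- cells, its call was lost over the 6 arrays compared (0.65, adjusted p = 0.0551), with the replicate block over these 6 (0.65, adjusted p = 0.107), at a log2 fold change of at least 1 (0.65), with the local pooled error test (0.58, adjusted p = 0.554) and with the mean of all its probe sets (0.40, adjusted p = 0.073). Without single arrays it was 0.57 to 0.69. The local pooled error test called both Pax7 probe sets in PAX3-FKHR GFP+ against control GFP+ cells (1.37, adjusted p = 0.00131 and 1.31, adjusted p = 6.48e-04). The cause of these losses was not tested. The block changed the call of no other main probe set of the 3 genes.

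Of 540 values of the members and of the further Pax3 probe set under alternatives, 489 kept their side of the threshold. These include the 3 that changed sign, none of them called. The 242 probe sets called in PAX3-FKHR GFP+ against control GFP+ cells became 488 with array weights, 376 with the replicate block over 6 arrays and 104 over the 6 arrays alone, and were 104 to 192 with single arrays left out (104 to 136 without a PAX3-FKHR GFP+ array or control GFP+ array 1). The 2631 in control GFP+ against GFP- cells became 1617 with the replicate block over 6 arrays and 1469 at a log2 fold change of at least 1, and were 1601 to 2787 with single arrays left out (up to 1738 without control GFP+ array 2 or GFP- array 1 or 3). The 3061 in PAX3-FKHR GFP+ against GFP- cells became 1647 at that threshold, and were 1580 to 2566 with single arrays left out (1580 without PAX3-FKHR GFP+ array 2 and 1963 without GFP- array 1). In the network list, the 1 gene called higher and the 1 called lower between GFP+ groups became 0 to 3 and 1 to 2. Array weights ran from 0.236 in control GFP+ replicate 3 to 2.69 in control GFP+ replicate 1. Low signal limits the values near the lower quartile of the arrays, such as those of Pax7 in GFP- cells.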
